A study of Mus musculus with 6 samples.

Results

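The genes described here are 10 genes of families in which some members are feedback genes switched on after a stimulus. They are 5 dual-specificity phosphatase genes (Dusp1, Dusp2, Dusp4, Dusp5 and Dusp6), 3 ZFP36 genes (Zfp36, Zfp36l1 and Zfp36l2) and the BTG genes Btg1 and Btg2. They were chosen by name, and all 10 were found among the 51361 gene symbols of the count table. The libraries were made from regulatory T cells (Tregs), sorted as CD4+CD25+Foxp3+ cells from young male mice. Every mouse, sham-operated ones included, carried the transgene Tg(Foxp3-DTR/EGFP)23.2Spar on the C57BL/6N background and was 9 weeks old by its label. In this transgene Foxp3 regulatory sequence drives a diphtheria toxin receptor fused to green fluorescent protein, so the reporter marks cells that use the Foxp3 promoter. The 3 groups of 2 libraries were tMCAO brain, tMCAO blood and sham blood. In tMCAO, the middle cerebral artery was blocked for 60 min and then reopened, which models ischaemic stroke, and cells were collected 14 days later. The sham group was blood from mice that had the operation without the occlusion, with no brain library to match it. The day of its collection after surgery was not given. Each library held 500 to 1000 sorted cells, and how many animals gave them was not stated. P-values therefore reflect the spread among these libraries alone, and that spread may be technical.

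Dual-specificity phosphatases remove phosphate from both the threonine and the tyrosine that activate mitogen-activated protein kinases (MAPKs), and so switch these kinases off. DUSP1, DUSP2, DUSP4 and DUSP5 act in the nucleus and DUSP6 in the cytoplasm. DUSP5 and DUSP6 act mainly on ERK, and DUSP1 mainly on p38 and JNK. ZFP36 proteins bind AU-rich elements in the tails of cytokine messenger RNAs and recruit the CCR4-NOT complex, which removes the poly(A) tail and starts decay. BTG1 and BTG2 bind the deadenylase subunits of the same complex, and in mice both are known to keep resting T cells quiescent.

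Several of these messages carry the element that ZFP36 proteins bind. The nonamer TTATTTATT was found in the 3′ untranslated region (UTR) of Dusp1 (2 copies), Zfp36, Zfp36l1 and Zfp36l2 (1 copy each), so 4 of the 10 genes hold it, against 7.11% of 20707 other protein-coding genes. Among other 3′ UTRs of similar length, the share was 4.17% for Dusp1, 4.24% for Zfp36, 9.92% for Zfp36l1 and 9.81% for Zfp36l2. The shorter core ATTTA, which the nonamer contains, was present in all 10 genes and in 62.7% of the others, which are not matched on length. Counts of ATTTA were 4 in Dusp1, 4 in Dusp2, 2 in Dusp4, 1 in Dusp5, 1 in Dusp6, 3 in Zfp36, 9 in Zfp36l1, 5 in Zfp36l2, 11 in Btg1 and 5 in Btg2. Among other 3′ UTRs of similar length the median was 1 for Dusp1, Dusp2 and Zfp36, 2 for Dusp4, Dusp5 and Dusp6, 3 for Zfp36l1 and Zfp36l2, 7 for Btg1 and 4 for Btg2, so Dusp5 and Dusp6 lay below it and Dusp4 at it. The 5 nonamer sites are shown because they are the known binding motif of the proteins that 3 of these genes encode. They were read from GENCODE M21 transcripts (GRCm38), and capitals mark the nonamer.
Dusp1, site 1, chr17:26506159-26506187, minus strand: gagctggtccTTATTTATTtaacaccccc
Dusp1, site 2, chr17:26505870-26505898, minus strand: gtttttacctTTATTTATTtttgtgtagg
Zfp36, chr7:28376951-28376979, minus strand: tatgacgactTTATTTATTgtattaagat
Zfp36l1, chr12:80108167-80108195, minus strand: aactgttggaTTATTTATTttagaaattc
Zfp36l2, chr17:84184914-84184942, minus strand: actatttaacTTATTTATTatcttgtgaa

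Promoters were available for 8 of the 10 genes (RefSeq, GRCm38.p6, 250 bases before to 50 bases after the annotated start), and Dusp4 and Zfp36l2 had no entry. The cyclic AMP response element TGACGTCA, bound by CREB and ATF proteins, was found in 2 of the 8, Dusp1 and Btg2, against 1.78% of 27025 promoters. The CArG box, bound by serum response factor, was found in 2 of the 8, Dusp5 and Zfp36, against 1.54%. Dusp5 held a pair of CArG boxes side by side, starting 82 and 72 bases before the start, and that of Zfp36 began 58 bases before it. The CRE began 143 bases before the start in Dusp1 and 166 bases before it in Btg2. The EGR motif GCGNGGGCG was found in 3 of the 8 (Dusp2, Zfp36 and Btg2) against 5.43%, and the AP-1 motif TGANTCA in 1, Zfp36l1, against 7.91%. The TATA motif TATAAA was found in Zfp36l1 and Btg1 (14.1% of all) and the GC box GGGCGG in 6 of the 8 (35.6% of all). The NF-kB motif was in none of the 8 windows and in 6.71% of all. Both strands were searched, and motifs overlapped in Dusp2 (EGR and GC box) and Zfp36 (CArG box and GC box). A match describes the letters only. The 4 windows with a CRE or a CArG box are printed over the 200 bases before the start, with CRE, CArG, EGR and AP-1 matches in capitals.
Dusp1, chr17:26508473-26508672, minus strand: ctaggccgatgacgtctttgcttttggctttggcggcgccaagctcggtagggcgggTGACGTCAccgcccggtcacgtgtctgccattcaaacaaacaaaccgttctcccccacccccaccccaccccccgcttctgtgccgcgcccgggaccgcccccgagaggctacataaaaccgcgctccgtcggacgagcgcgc
Btg2, chr1:134079156-134079355, minus strand: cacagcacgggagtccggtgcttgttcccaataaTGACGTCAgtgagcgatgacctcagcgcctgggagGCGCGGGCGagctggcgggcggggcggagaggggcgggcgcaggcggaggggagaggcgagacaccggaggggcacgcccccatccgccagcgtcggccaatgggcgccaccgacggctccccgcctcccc
Dusp5, chr19:53528945-53529144, plus strand: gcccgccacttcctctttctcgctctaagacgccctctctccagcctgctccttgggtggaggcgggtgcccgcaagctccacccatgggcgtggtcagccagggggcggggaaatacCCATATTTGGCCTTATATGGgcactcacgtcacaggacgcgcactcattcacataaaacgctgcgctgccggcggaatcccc
Zfp36, chr7:28379229-28379428, minus strand: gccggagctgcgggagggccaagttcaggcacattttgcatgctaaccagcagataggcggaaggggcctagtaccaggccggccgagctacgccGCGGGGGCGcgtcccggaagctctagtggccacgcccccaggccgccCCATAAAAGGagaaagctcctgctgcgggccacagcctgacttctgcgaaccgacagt

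**Figure D1:**
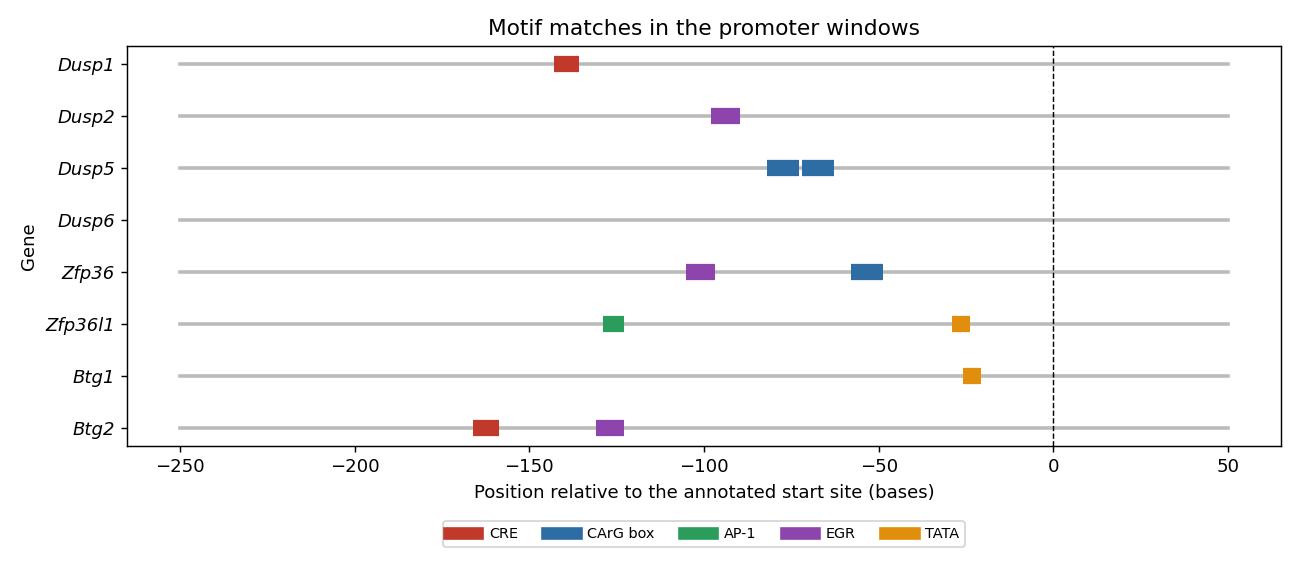
Motif matches in the promoter windows of 8 genes, by position in bases from the annotated start site (dashed line at 0), with 1 row for each gene and 1 colour for each motif. Dusp1 and Btg2 hold a CRE, Dusp5 holds 2 adjacent CArG boxes, Zfp36 holds 1, and Dusp6 holds no match to the 5 motifs drawn.

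Library totals ranged from 14348179 to 24460894 counts, and all 10 genes passed the filter on low counts, which left 16657 genes. The libraries held unequal amounts of T cell RNA. The 18 T cell identity markers took 0.0307% and 0.158% of counts in brain after tMCAO, 0.0699% and 0.468% in blood after tMCAO, and 0.932% and 0.904% in blood after sham surgery. The 8 Treg markers took 0.0111% and 0.0615% in brain after tMCAO, 0.0166% and 0.108% in blood after tMCAO, and 0.204% and 0.201% in blood after sham surgery, with no marker of either list at 0. Foxp3 itself had 12 and 480 counts in brain after tMCAO, 10 and 104 in blood after tMCAO, and 780 and 863 in blood after sham surgery. The 14 microglia markers took 0.964% and 0.983% in brain after tMCAO, 0.0725% and 0.0803% in blood after tMCAO, and 0.0318% and 0.0409% in blood after sham surgery. For the 16 markers of monocytes and macrophages the shares were 14.3% and 6.76% in brain after tMCAO, 4.17% and 2.35% in blood after tMCAO, and 0.861% and 0.816% in blood after sham surgery. Apoe alone gave 1957846 of the 2839910 counts of this list in tMCAO brain library 1 and 1111237 of 1653361 in library 2. The list was split for tMCAO brain over tMCAO blood. None of the 16 passed as higher by edgeR and 3 passed as lower, against 3.53% and 1.37% of all tested genes. Both brain libraries lay above both tMCAO blood libraries for 5 and below them for 5, against 31.4% and 25.9%. In the same contrast 11 of the 14 microglia markers and 4 of the 9 dendritic cell markers passed as higher, and none as lower. For tMCAO brain over sham blood, 8 of the 16 monocyte and macrophage markers and all 14 microglia markers passed as higher. None of either list passed as lower there, against 8.01% higher and 2.62% lower over all tested genes. All 14 microglia markers had a count in both brain libraries, against 11 or 12 in each blood library, and Sall1, which defines microglia, was at 0 in all 4 of these. The monocyte and macrophage markers all had a count except Cd163 in sham blood library 1. Markers of other blood cells differed too. The 9 red cell markers took 0.00108% and 0.00269% in brain after tMCAO, 0.108% and 3.82% in blood after tMCAO, and 15.5% and 17.01% in blood after sham surgery, and 8 of the 9 passed as lower for tMCAO brain over sham blood. Neutrophil markers took 0.175% and 0.0249% in brain after tMCAO, 0.0310% and 0.789% in blood after tMCAO, and 0.00211% and 0.00214% in blood after sham surgery. Shares of dendritic cell, B cell, CD8 T and NK cell, and platelet markers were at most 0.193% in any library. In a bulk library, fewer cells of a type and less RNA per cell cannot be told apart. These marker shares move with each contrast below, and their part in the results was not tested.

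Brain libraries of operated mice were set against their blood libraries to ask what differed between the sites. Btg2, Zfp36 and Zfp36l1 rose in tMCAO brain by 13.2-fold, 6.72-fold and 3.49-fold. Thus 3 of the 10 genes passed as higher and none as lower at an edgeR adjusted p under 0.05, where 4.90% of all tested genes passed in either direction 3.53% as higher and 1.37% as lower. The 10 genes had a median log2 change of 2.25, against 0.06 over all tested genes. Both brain libraries lay above both blood libraries for 8 of the 10, against 31.4% of all tested genes, and none lay below both, against 25.9%. The exceptions were Dusp2 and Zfp36l2.

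Btg2 (chromosome 1, 134075170 to 134079120, minus strand, GRCm38, 2 exons) stood at 1811 and 1122 CPM (counts scaled to library size) in brain after tMCAO, 114 and 107 CPM in blood after tMCAO, and 269 and 265 CPM in blood after sham surgery. It was highest in both brain libraries and lowest in both blood libraries of operated mice, with no overlap among the 3 groups. Its log2 change for tMCAO brain over tMCAO blood was 3.73 ± 0.39 (SE, edgeR adjusted p = 0.0167). The call was lost without tMCAO blood library 2 (adjusted p = 0.0556) or sham blood library 1 or 2 (0.0653 and 0.062).

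Zfp36, which encodes tristetraprolin (chromosome 7, 28376784 to 28380253, minus strand), stood at 1553 and 897 CPM in brain after tMCAO, 224 and 141 CPM in blood after tMCAO, and 177 and 267 CPM in blood after sham surgery. Both blood groups overlapped, and the brain libraries were above all 4 of their libraries. The log2 change for tMCAO brain over tMCAO blood was 2.75 ± 0.47 (edgeR adjusted p = 0.0348). Zfp36l1 (chromosome 12, 80107754 to 80113013, minus strand) stood at 82.4 and 83.9 CPM in brain after tMCAO, 25.2 and 22.4 CPM in blood after tMCAO, and 25.7 and 41.1 CPM in blood after sham surgery. Its brain libraries were nearly equal to each other and again above all blood libraries, with a log2 change of 1.80 ± 0.31 over tMCAO blood (edgeR adjusted p = 0.0349). Either call was lost when any 1 of the 6 libraries was left out (adjusted p of 0.0553 to 0.103 for Zfp36 and 0.0885 to 0.111 for Zfp36l1). Neither these 2 nor Btg2 passed with only the 2 groups fitted (adjusted p = 0.0927, 0.0803 and 0.0625 for Zfp36, Zfp36l1 and Btg2), a fit in which 0.162% of all tested genes passed.

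Zfp36l2 (chromosome 17, 84183931 to 84187947, minus strand), the third gene of the family, did not share that pattern. It stood at 67.2 and 128 CPM in brain after tMCAO, 119.9 and 106 CPM in blood after tMCAO, and 74.0 and 63.4 CPM in blood after sham surgery. The brain libraries lay on either side of the tMCAO blood libraries, and the log2 change was -0.21 ± 0.36 (edgeR adjusted p = 0.735). That estimate turned to 0.17 without tMCAO brain library 1 and to 0.45 with libraries scaled to T cell identity genes. Per kb of exon, Zfp36 made up 90.6% and 80.0% of the summed ZFP36 family level in brain after tMCAO, 60.3% and 51.9% in blood after tMCAO, and 63.3% and 70.8% in blood after sham surgery. Zfp36l2 made up 3.85% and 11.3% in brain after tMCAO, 31.8% and 38.5% in blood after tMCAO, and 26.1% and 16.5% in blood after sham surgery. The brain libraries were thus those with the highest share of Zfp36 and the lowest of Zfp36l2. The exon length used for Zfp36, 3470 bases, covers its whole annotated span with the intron, which lowers its share in every library.

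Dusp1, encoding the phosphatase MKP-1, was the most abundant of the 10 genes per kb of exon in both tMCAO groups (mean of 702 CPM per kb in brain after tMCAO, 108 in blood after tMCAO and 75.6 in sham blood). This rank depends on the lengths used. Zfp36 stood at 353 and 52.6 CPM per kb in these 2 groups, on a length of 3470 bases that includes its intron. Dusp1 stood at 2111 and 1219 CPM in brain after tMCAO, 411 and 104 CPM in blood after tMCAO, and 128 and 231 CPM in blood after sham surgery. The brain libraries were above all 4 blood libraries, and tMCAO blood library 1 was above the other 3 of these. The log2 change for tMCAO brain over tMCAO blood was 2.69 ± 0.74 (edgeR adjusted p = 0.0827), which missed the threshold. It passed by limma-voom (adjusted p = 0.0491) and DESeq2 (0.00186). The log2 change was 4.002 without tMCAO blood library 1 and 2.01 without tMCAO blood library 2. The annotated span of Dusp1 (chromosome 17, 26505590 to 26562128, minus strand) overlaps the protein-coding gene Ergic1 on the other strand, and the labels do not state the strand setting of the counting.

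Dusp5 (chromosome 19, 53529109 to 53542431, plus strand) encodes a nuclear ERK phosphatase. It stood at 51.7 and 187 CPM in brain after tMCAO, 9.31 and 26.5 CPM in blood after tMCAO, and 11.4 and 7.81 CPM in blood after sham surgery. Both brain libraries were higher than every blood library, and brain library 2 was the highest. The log2 change over tMCAO blood was 2.74 ± 0.76 (edgeR adjusted p = 0.0835), and it passed by DESeq2 (0.00315) but not by limma-voom (0.0746). The log2 change was 1.53 without tMCAO brain library 2, 3.37 without tMCAO brain library 1 and 3.66 without tMCAO blood library 2. Dusp6 (chromosome 10, 99263231 to 99267489, plus strand), the cytoplasmic ERK phosphatase, stood at 184 and 102 CPM in brain after tMCAO, 73.9 and 84.1 CPM in blood after tMCAO, and 60.6 and 67.0 CPM in blood after sham surgery. The 3 groups did not overlap, but the change did not pass (log2 0.86 ± 0.34 over tMCAO blood, edgeR adjusted p = 0.165).

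Dusp4 (chromosome 8, 34807297 to 34819894, plus strand), which encodes MKP-2, was the least abundant of the 10. It had 20 and 289 counts in brain after tMCAO, 6 and 14 in blood after tMCAO, and 25 and 3 in blood after sham surgery, so single libraries carried most of its signal. Its log2 change over tMCAO blood was 3.66 ± 1.42 (edgeR adjusted p = 0.158) and was 1.24 without tMCAO brain library 2, 4.501 without tMCAO brain library 1 and 4.29 without tMCAO blood library 2. Dusp2 (chromosome 2, 127336159 to 127338376, plus strand), a phosphatase gene of blood cells, stood at 30.6 and 63.1 CPM in brain after tMCAO, 22.5 and 57.5 CPM in blood after tMCAO, and 30.8 and 26.9 CPM in blood after sham surgery. Library 2 was above library 1 in both tMCAO groups, which overlapped (log2 change 0.23 ± 0.53, edgeR adjusted p = 0.808).

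Btg1 (chromosome 10, 96617006 to 96622809, plus strand) stood at 468 and 1227 CPM in brain after tMCAO, 216 and 293 CPM in blood after tMCAO, and 861 and 625 CPM in blood after sham surgery. Unlike Btg2, its brain and sham libraries overlapped, while both tMCAO blood libraries were below all others. The log2 change for tMCAO brain over tMCAO blood was 1.74 ± 0.53 (edgeR adjusted p = 0.0985), and it was 0.88 without tMCAO brain library 2. Per kb of exon, Btg2 made up 88.2% and 63.8% of the summed BTG level in brain after tMCAO, 50.4% and 41.3% in blood after tMCAO, and 37.6% and 44.9% in blood after sham surgery. The share of Dusp1 in the 5 phosphatase genes was 89.3% and 76.8% in brain after tMCAO, 79.7% and 36.3% in blood after tMCAO, and 53.9% and 69.0% in blood after sham surgery, where the brain and tMCAO blood libraries overlapped.

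**Figure D2:**
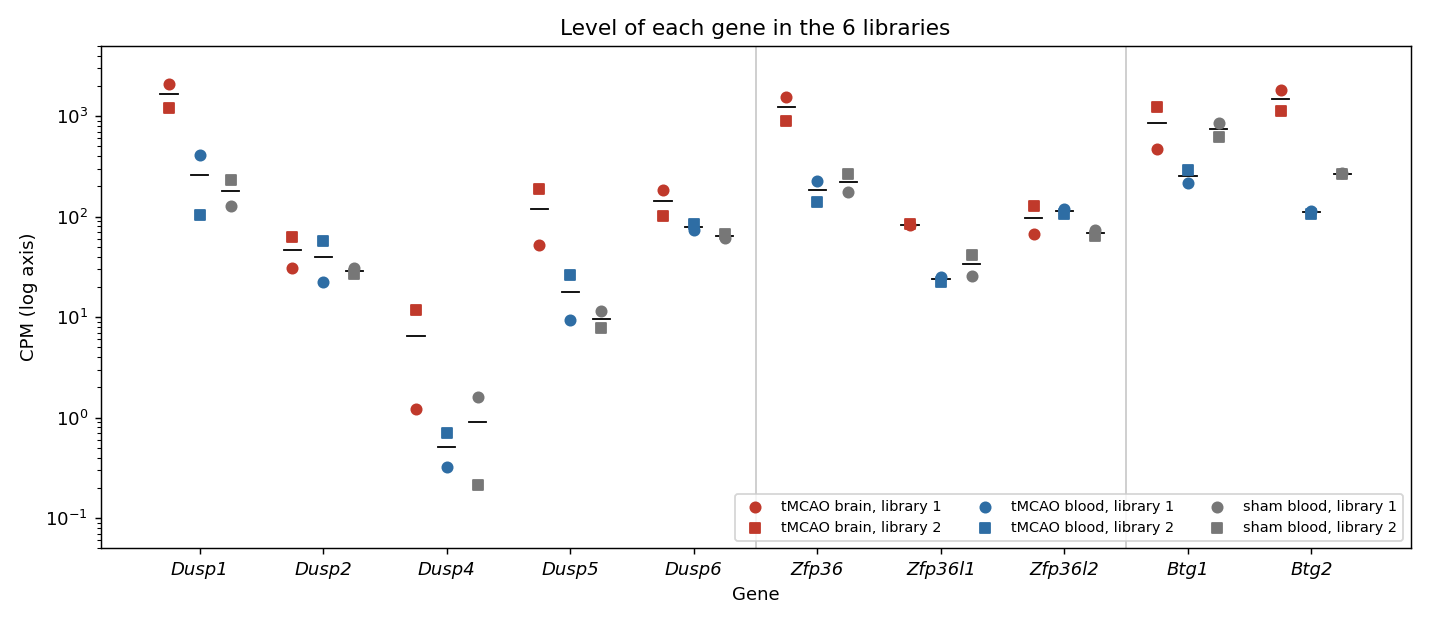
Level of each of the 10 genes in CPM (log axis) in the 6 libraries, with tMCAO brain (red), tMCAO blood (blue) and sham blood (grey) from left to right, circles for library 1, squares for library 2 and a bar at the group mean. Dusp1, Dusp5, Zfp36, Zfp36l1 and Btg2 have both brain libraries above all 4 blood libraries, as has Dusp6, and Dusp2, Dusp4, Zfp36l2 and Btg1 do not.

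**Figure D3:**
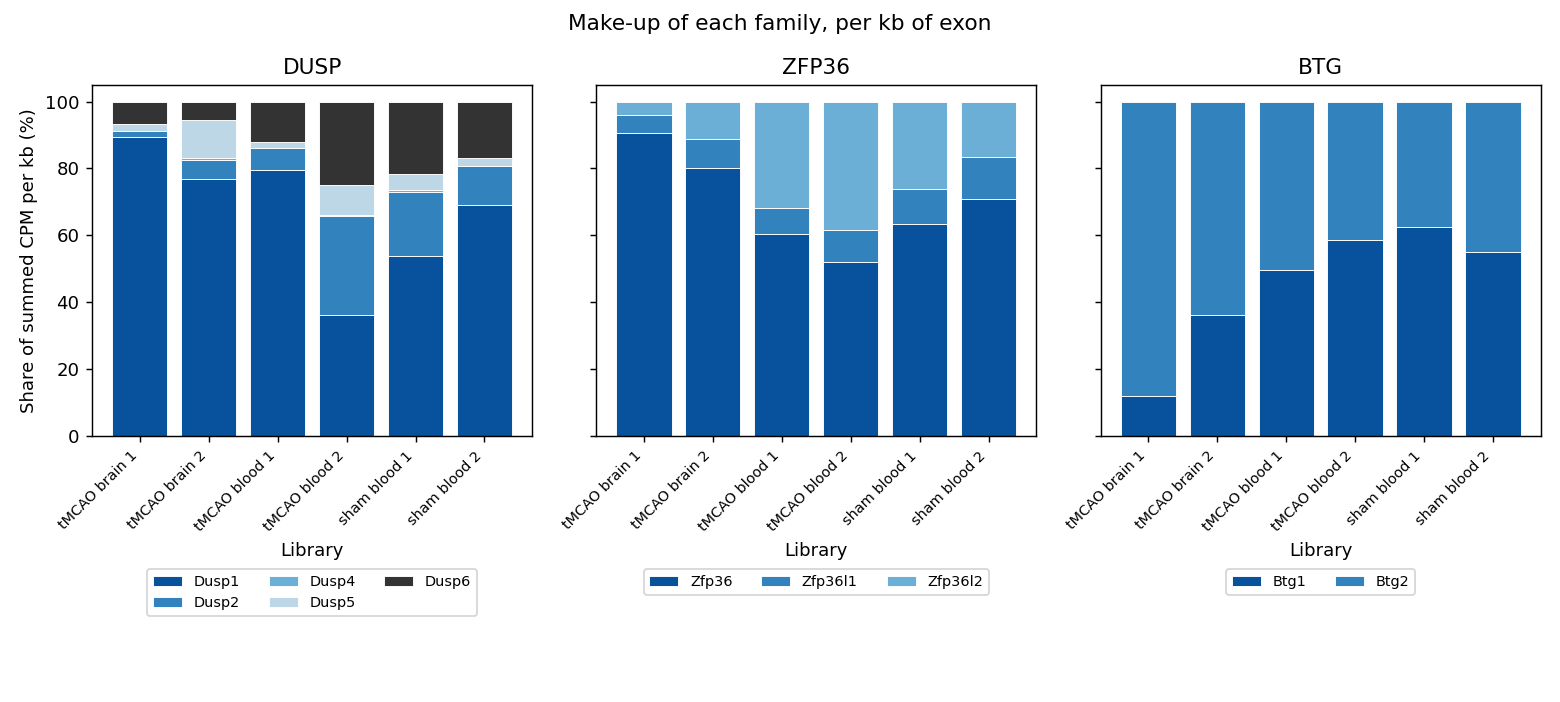
Share (%) of each gene in the summed CPM per kb of exon of its family, with 1 bar for each library. Zfp36 holds 90.6% and 80.0% of the ZFP36 family in tMCAO brain, and Btg2 holds 88.2% and 63.8% of the BTG pair there. The length used for Zfp36 includes its intron.

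Brain libraries of operated mice were also set against blood of sham-operated mice. In this contrast 5 of the 10 genes rose and none fell, where 10.6% of all tested genes passed in either direction 8.01% as higher and 2.62% as lower. They were Dusp5 (12.4-fold, log2 change 3.63 ± 0.79, edgeR adjusted p = 0.0395), Dusp1 (9.28-fold, 3.21 ± 0.76, adjusted p = 0.0483) and Zfp36 (5.52-fold, 2.47 ± 0.46, adjusted p = 0.0281). The other 2 were Btg2 (5.49-fold, 2.46 ± 0.37, edgeR adjusted p = 0.0169) and Zfp36l1 (2.49-fold, 1.32 ± 0.31, adjusted p = 0.046). Both brain libraries were above both sham libraries for these 5 and for Dusp6, against 34.9% of all tested genes, and none lay below both, against 29.7%. Dusp6 had a log2 change of 1.17 ± 0.34 (edgeR adjusted p = 0.0787). Log2 changes under 1 were 0.70 ± 0.54 for Dusp2, 0.51 ± 0.36 for Zfp36l2 and 0.19 ± 0.51 for Btg1 (edgeR adjusted p of 0.435, 0.397 and 0.844). Dusp4 had 2.83 ± 1.36 (0.222), and 0.40 without tMCAO brain library 2. This contrast shares the brain libraries with the one above, and it joins site and operation, so these cannot be told apart.

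All 5 calls were lost without sham blood library 1 (adjusted p of 0.178 to 0.331) and without sham blood library 2 (0.165 to 0.261). In these 2 fits no gene of all those tested passed by edgeR, though 3160 and 3005 had an unadjusted p under 0.05. Without tMCAO brain library 1 the calls of Dusp1, Zfp36 and Zfp36l1 were lost (0.122, 0.075 and 0.126). Without tMCAO brain library 2 those of Dusp1, Dusp5 and Zfp36l1 were (0.0633, 0.083 and 0.108), and that of Zfp36l1 was also lost without tMCAO blood library 1 or 2 (0.0576 and 0.0588). With DESeq2 size factors Dusp1 and Zfp36l1 missed the threshold (0.051 and 0.0565), with upper-quartile scaling Zfp36l1 did (0.0524), and by limma-voom Dusp5 did (0.0569). The log2 change of Dusp5 was 2.42 without tMCAO brain library 2 and 4.27 without tMCAO brain library 1.

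Blood of operated mice was compared with blood of sham-operated mice to ask what the stroke changed outside the brain. None of the 10 genes passed by edgeR or limma-voom, where 7.48% of all tested genes passed by edgeR, 4.33% as higher and 3.15% as lower. At an unadjusted edgeR p under 0.05 there were 2 (Btg1 and Btg2), against 4938 of all 16657 tested genes. The same 2 genes passed by DESeq2, against 23.8% of all genes. The median log2 change of the 10 was 0.01, against 0.11 over all tested genes. Btg2 had a log2 change of -1.27 ± 0.35 (edgeR adjusted p = 0.0754; DESeq2 adjusted p = 0.00211) and Btg1 of -1.55 ± 0.52 (0.114 and 0.0168), and for both the tMCAO blood libraries lay below the sham libraries. In the fit scaled to T cell identity genes these became 1.66 and 1.19, where the median of all genes was 2.94. Zfp36l1 was also below without overlap, and Dusp6 and Zfp36l2 above, so 3 genes lay below and 2 above, against 30.4% and 33.6% of all tested genes. The remaining log2 changes ran from -0.83 ± 1.35 for Dusp4 to 0.90 ± 0.73 for Dusp5.

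**Figure D4:**
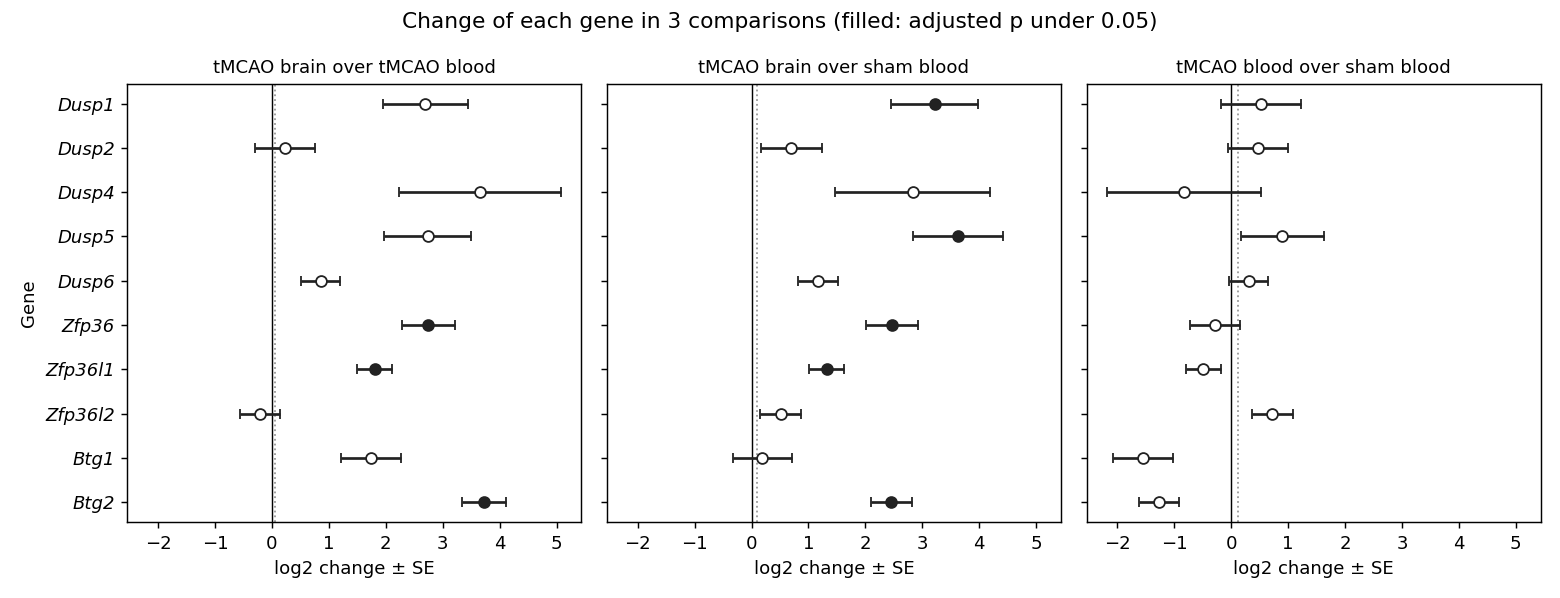
The log2 change (point) and its standard error (bar) of each gene for tMCAO brain over tMCAO blood, tMCAO brain over sham blood and tMCAO blood over sham blood, with filled points for an edgeR adjusted p under 0.05 and a dotted line at the median of all tested genes. Filled points number 3, 5 and 0 of 10 in these panels.

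The 2 libraries of a group differed, and the 10 genes did not differ alike. In tMCAO brain, library 2 was above library 1 for Dusp4 (log2 ratio 3.29), Dusp5 (1.85), Btg1 (1.39), Dusp2 (1.05) and Zfp36l2 (0.94). It was below library 1 for Dusp6 (-0.85), Dusp1 (-0.79), Zfp36 (-0.79) and Btg2 (-0.69), and level for Zfp36l1 (0.03). The median log2 ratio was 2.31 for the T cell identity markers, -1.28 for the monocyte and macrophage markers and 0.07 for the microglia markers. In tMCAO blood, Dusp5 (1.51), Dusp2 (1.35), Dusp4 (1.11) and Btg1 (0.44) were again higher in library 2, and Dusp1 (-1.99), Zfp36 (-0.67) and, by little, Btg2 (-0.09) lower. Dusp6 (0.19) and Zfp36l2 (-0.17) had the opposite sign to that in tMCAO brain, and Zfp36l1 stood at -0.17. The marker medians there were 2.47 for T cell identity and -1.14 for monocytes and macrophages. In sham blood, where the T cell median was -0.04, Dusp1 (0.86), Zfp36 (0.60) and Zfp36l1 (0.68) were higher in library 2, and Dusp5 (-0.55) lower. Dusp4, Dusp5, Dusp2 and Btg1 thus had the sign of the T cell markers in both tMCAO groups, and Dusp1 and Zfp36 that of the monocyte and macrophage median. Btg2 had the latter sign in tMCAO brain, but in tMCAO blood it lay near the median of all tested genes (-0.05). Some monocyte and macrophage markers went against their median in tMCAO brain, such as Ccr2 (82.1 and 199 CPM) and Plac8 (89.0 and 209 CPM). The T cell sign was shared by other lists. B cell markers took 0.0468% of counts in library 1 and 0.173% in library 2 of tMCAO brain, and CD8 T and NK cell markers 0.00983% and 0.131%. For tMCAO blood these shares were 0.0178% and 0.0803% for B cells, and 0.0300% and 0.0887% for CD8 T and NK cells. Neutrophil markers (0.0310% and 0.789%) and red cell markers (0.108% and 3.82%) also had the T cell sign in tMCAO blood. In tMCAO brain, neutrophil markers had the opposite sign (0.175% and 0.0249%). Platelet markers shared the monocyte and macrophage sign. They took 0.0496% in library 1 and 0.00529% in library 2 of tMCAO brain, and 0.191% and 0.0920% in tMCAO blood. The ratio is a description of 2 libraries each, and the part of the cell make-up in it was not tested.

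**Figure D5:**
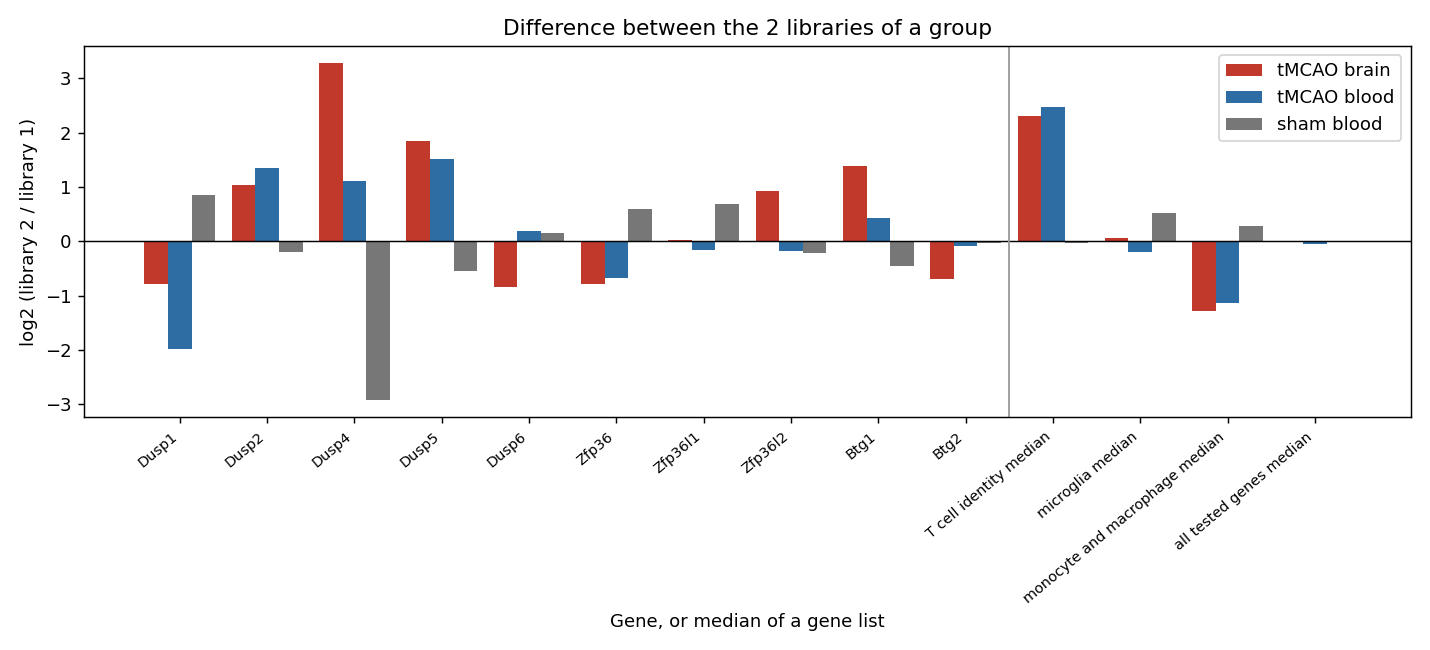
Log2 ratio of library 2 over library 1 within tMCAO brain, tMCAO blood and sham blood for each gene and, right of the line, the median of marker lists and of all tested genes. Dusp4 reaches 3.29 in tMCAO brain, where the T cell identity median is 2.31, while Dusp1 and Zfp36 are below 0 in both tMCAO groups.

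The genes that act beside these 10 were counted from lists named for their roles. The lists can share genes, so their counts are not independent. Ier3, for example, is both among the genes of feedback on ERK signalling and among the immediate early genes. Of 19 other dual-specificity phosphatase genes 14 were tested. None of them passed by edgeR for tMCAO brain over tMCAO blood (5 at an unadjusted p under 0.05, 4 by DESeq2 and 1 by limma-voom) or over sham blood (5, 3 and 1). Of all 16657 tested genes, 4671 and 5034 had an unadjusted edgeR p under 0.05 in these contrasts. For tMCAO brain over tMCAO blood 21.1% of all genes passed by DESeq2 and 8.68% by limma-voom. Dusp16, a phosphatase of JNK and p38, rose in tMCAO blood over sham blood (47.5 and 55.2 CPM against 20.1 and 20.1 CPM, log2 change 1.35). Of 15 genes of feedback on ERK signalling 12 were tested, with 1 rising for tMCAO brain over tMCAO blood, 6 for tMCAO brain over sham blood and 3 for tMCAO blood over sham blood, and none falling. The shares of all tested genes that passed as higher were 3.53%, 8.01% and 4.33%. Errfi1, an inhibitor of the epidermal growth factor receptor, stood at 79.4 and 119 CPM in brain after tMCAO, 6.78 and 8.17 CPM in blood after tMCAO, and 5.52 and 6.19 CPM in blood after sham surgery, and it rose in both brain contrasts (edgeR adjusted p = 0.0148 and 0.00841). Over sham blood the calls next in order in tMCAO brain were Ier3, Etv1 and Etv5 (edgeR adjusted p = 0.0203, 0.0235 and 0.0317), and the 3 calls in tMCAO blood were Spred1, Etv5 and Etv1 (0.0313, 0.0483 and 0.0485). Etv1 and Etv5 encode ETS factors transcribed after ERK activity, and Spred1 an inhibitor of the pathway.

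Among the kinases that the phosphatases act on or that lie above them, 19 of 20 were tested. For tMCAO brain over tMCAO blood 2 rose and none fell, where 3.53% of all tested genes passed as higher and 1.37% as lower. Map2k3, a kinase that activates p38, was among those that rose (3.03-fold, edgeR adjusted p = 0.0312), with 130.4 and 128 CPM in brain after tMCAO, 41.7 and 43.5 CPM in blood after tMCAO, and 144 and 169 CPM in blood after sham surgery. The tMCAO blood libraries were its low ones. Over sham blood, 1 kinase gene rose (Mapk3) and 2 fell (Mapk11 and Mapk12) in tMCAO brain, and 2 rose (Mapk3 and Mapk14) and 3 fell (Map2k3 and Mapk11 among them) in tMCAO blood. The shares of all tested genes were 8.01% higher and 2.62% lower for tMCAO brain, and 4.33% higher and 3.15% lower for tMCAO blood. Mapk3, encoding ERK1, was higher in both tMCAO groups than in sham blood (60.2 and 75.9 CPM in brain after tMCAO, 78.7 and 75.3 CPM in blood after tMCAO, and 16.6 and 15.4 CPM in blood after sham surgery).

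Of 26 genes of the CCR4-NOT complex and general decay, all were tested and few passed. Cnot6, a deadenylase subunit, fell for tMCAO brain over tMCAO blood (31.9 and 45.4 CPM against 104 and 151 CPM, edgeR adjusted p = 0.0422), and none rose. Tob2, a relative of the BTG genes, rose over sham blood at both sites after tMCAO (51.2 and 88.3 CPM in brain after tMCAO, 52.1 and 57.8 CPM in blood after tMCAO, and 15.0 and 13.2 CPM in blood after sham surgery). Pabpc1, the poly(A)-binding protein gene, fell in tMCAO brain over sham blood, and Cnot2 fell in tMCAO blood over sham blood. The list median was 0.05 for tMCAO brain over tMCAO blood and -0.11 over sham blood, near the medians of all tested genes (0.06 and 0.09). Of 14 other RNA-binding genes that act on unstable messages 13 were tested. Arid5a, Zc3h12a and Zc3h12c rose for tMCAO brain over tMCAO blood, Zc3h12a and Zc3h12c over sham blood, while N4bp1 and Hnrnpd rose and Arid5a fell in tMCAO blood over sham blood. The shares of all tested genes beside the counts of these lists are those given for the kinases. Zc3h12a, encoding the endonuclease Regnase-1, stood at 28.6 and 58.1 CPM in brain after tMCAO, 6.89 and 4.04 CPM in blood after tMCAO, and 4.88 and 5.21 CPM in blood after sham surgery.

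Of 22 transcripts known as targets of ZFP36 proteins, 7 rose for tMCAO brain over tMCAO blood and 11 for tMCAO brain over sham blood, and none fell in either. Among all tested genes 3.53% and 8.01% passed as higher in these contrasts. The median log2 changes of the 22 were 3.71 and 6.27, against 0.06 and 0.09 over all tested genes. Tnf, encoding the tumour necrosis factor, stood at 285 and 129 CPM in brain after tMCAO, 6.78 and 5.78 CPM in blood after tMCAO, and 6.29 and 6.61 CPM in blood after sham surgery. Il1b, encoding interleukin-1 beta, stood at 2160 and 1804 CPM in brain after tMCAO, 16.1 and 7.13 CPM in blood after tMCAO, and 14.9 and 33.6 CPM in blood after sham surgery. Nfkbiz and Ptgs2, an NF-kB cofactor gene and the gene of cyclooxygenase 2, rose in both brain contrasts as well. Tnf, Il1b and Zfp36 were thus each highest in the brain libraries. For tMCAO blood over sham blood none of the 22 passed by edgeR or limma-voom (10 at an unadjusted p under 0.05, 8 by DESeq2). Of all 16657 tested genes 4938 had an unadjusted edgeR p under 0.05 there, and 23.8% passed by DESeq2.

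Of 23 immediate early genes, which also answer to tissue dissociation, 13 rose for tMCAO brain over tMCAO blood, 20 for tMCAO brain over sham blood, and none fell in either, where 3.53% and 8.01% of all tested genes passed as higher. For tMCAO blood over sham blood 1 of the 23 rose (Klf4) and 1 fell (Ppp1r15a), where 4.33% of all tested genes passed as higher and 3.15% as lower. Egr1 stood at 592 and 455 CPM in brain after tMCAO, 15.0 and 6.93 CPM in blood after tMCAO, and 3.08 and 4.08 CPM in blood after sham surgery. Junb stood at 1853 and 1463 CPM in brain after tMCAO, 117 and 78.2 CPM in blood after tMCAO, and 266 and 402 CPM in blood after sham surgery, with the groups in the order seen for Btg2. How cells were freed from either tissue is not stated in the labels, so tissue and its preparation cannot be told apart.

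The gene closest to each of the 10 in its pattern was found as the one with the smallest root-mean-square distance between log2 CPM profiles over the 6 libraries, each centred on its own mean, among 6430 genes that averaged 20 CPM or more. It was Tgif1 for Btg2 (distance 0.18 log2 units), As3mt for Zfp36 (0.18), Slc38a10 for Zfp36l1 (0.11), Snhg1 for Zfp36l2 (0.08), and Aim2 for Dusp6 (0.10). It was Aebp2 for Dusp2 (0.16), Map3k1 for Btg1 (0.27), Atp6v0a1 for Dusp1 (0.28), Dennd4a for Dusp5 (0.41) and Mfge8 for Dusp4 (0.56). Tgif1, for example, stood at 434 and 360.0 CPM in brain after tMCAO, 36.6 and 27.5 CPM in blood after tMCAO, and 64.7 and 78.0 CPM in blood after sham surgery, so its 3 groups stood in the order of those of Btg2. Among the 10 themselves the closest pairs were Dusp2 with Zfp36l2 (0.50), Dusp1 with Zfp36 (0.51) and Zfp36 with Btg2 (0.52), and the most distant was Dusp1 with Dusp2 (1.69). Dusp2 and Zfp36l2 lay as close to a flat profile (0.55 and 0.41) as to each other, while Dusp1, Zfp36 and Btg2 lay at 1.60, 1.27 and 1.54 from it. These distances rest on 6 libraries and were not tested.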

How the data were processed

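Messenger RNA of sorted cells was measured by bulk RNA sequencing in 6 libraries. Per the labels' protocols, cDNA was made with a SMART-Seq low-input kit and tagged with Nextera XT, and reads were paired-end at 75 bases. The deposited values are raw gene counts, which the authors obtained with STAR (version not given in the sources used here) and HTSeq 0.11.2 on GRCm38, per the submitters' processing notes. Annotation release and strand setting were not given, so genes overlapping an antisense gene (Dusp1, Dusp5, Zfp36, Zfp36l1 and Zfp36l2) are uncertain. Without molecular identifiers, counting error understates the true error.

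Groups came from the titles. Column names of the blood libraries hold S or M, which were read as sham and MCAO from the initial letter, as the labels do not spell this out. Genes were filtered with filterByExpr (minimum count 10), normalised by TMM, and compared in edgeR 4.0.16 by its quasi-likelihood test (R 4.3.3) in one fit of all 6 libraries with 3 residual degrees of freedom. P-values were adjusted by Benjamini-Hochberg over all 16657 tested genes within a comparison, threshold 0.05. The test was checked on simulated counts. The SE is the log2 change over the square root of F. CPM use TMM-adjusted sizes, and lengths per kb are the union of exons of basic protein-coding GENCODE M21 transcripts. Alternatives used DESeq2 1.42.0, limma 3.58.1 and other filters, scalings and library sets. The genes, lists and the rule for naming genes (the 10 genes, up to 4 called genes of a list or 2 of the most abundant, and the closest pattern of each) were chosen with earlier results of these data known. A selection of these is given. The 2 libraries of a group were distinct, with a chi-square of 25.3 to 219 for each degree of freedom.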

Additional observations from a re-analysis of the deposited data

How the results depend on the processing

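Of 477 refitted log2 changes of the 10 genes, 381 kept their direction and side of the threshold, 44 lost a call, 32 gained one and 20 changed sign. For tMCAO brain over tMCAO blood the count of 3 genes called became 7 with no filter on low counts (11.5% of all tested genes called), 7 by DESeq2 (21.1%), 0 with only the 2 groups compared (0.162%; 7 at an unadjusted p under 0.05), 0 with libraries scaled to T cell identity genes (2.47%; 3 unadjusted) and 0 to 1 with 1 library left out (0.160% to 1.67% of all tested genes). For tMCAO brain over sham blood the count of 5 became 3 with DESeq2 size factors (10.5%), 9 with T cell scaling (52.1%) and 0 to 4 with 1 library left out (0% to 11%). For tMCAO blood over sham blood the count of 0 became 2 with no filter (11.6%) and by DESeq2 (23.8%), and 1 with only the 2 groups compared (11.7%). With library 1 of both tMCAO groups left out, chosen after results were seen, the counts were 7, 8 and 4 for tMCAO brain over tMCAO blood, tMCAO brain over sham blood and tMCAO blood over sham blood (19.9%, 27.4% and 21.2% of all genes), in a fit whose spread comes from the sham pair alone. The cause of these shifts was not tested.

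T cell scaling moved the median log2 change of all genes to 1.10, 3.98 and 2.94 in the same order of comparisons. Under it Zfp36l2 turned to 0.45 for tMCAO brain over tMCAO blood, and for tMCAO blood over sham blood Dusp4 turned to 1.56, Zfp36 to 2.82, Zfp36l1 to 2.46, Btg1 to 1.19 and Btg2 to 1.66. Relative to that median, Btg2 stood at 3.83, 2.61 and -1.29 and Zfp36 at 2.70, 2.64 and -0.12. With library 1 of both tMCAO groups left out Zfp36l2 turned to 0.20 for tMCAO brain over tMCAO blood, and Dusp1 to -0.75 for tMCAO blood over sham blood. Leaving out 1 library gave ranges across 0 for tMCAO brain over tMCAO blood in Dusp2 (-0.38 to 1.04) and Zfp36l2 (-0.75 to 0.17), and for tMCAO brain over sham blood in Zfp36l2 (-0.034 to 0.89) and Btg1 (-0.67 to 0.71). For tMCAO blood over sham blood it did so in Dusp1 (-0.80 to 1.19), Dusp2 (-0.36 to 0.99), Dusp4 (-1.64 to 1.23), Dusp5 (-0.048 to 1.46) and Zfp36 (-0.66 to 0.042). In such a fit the lone library of a group is assumed to vary like the others.

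Replicate numbers are shared between groups, but nothing says that they pair libraries. Deviations of same-numbered libraries correlated across genes at 0.33 between tMCAO brain and tMCAO blood, -0.04 between tMCAO brain and sham blood and -0.09 between tMCAO blood and sham blood. With the number as a replicate block, 3, 4 and 0 of the 10 genes passed, with Zfp36l1 lost for tMCAO brain over sham blood (adjusted p = 0.0508). Counts of 3 and 6 in single libraries limit Dusp4.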
